A study of Mus musculus with 8 samples.

Results

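The metallothionein and zinc transporter genes examined here are Mt1, Mt2, Mt3, Mtf1, Slc30a1, Slc30a3, Slc30a10, Slc39a10 and Slc39a14, 9 of the 24344 gene symbols in an RNA-seq table of mouse cortex. They were chosen by name for their role in metal handling, with earlier results of these data known. Each of the 9 reached 1 FPKM (fragments per kilobase of transcript, scaled to sequencing depth) in all 8 libraries, so that all were among the 12377 genes tested and none passed the filter on low values through 1 group alone. The tissue was a homogenate of occipital cortex, which holds the visual areas, from C57BL/6J mice at postnatal day 35. Food was withheld from the fasted group for 48 h (4 libraries), and the control group ate ad libitum (4 libraries). No allele, transgene or further agent is given for either group, and whether each library came from a different mouse is not stated, so that p-values measure the spread between these libraries. In homogenate, fewer cells of a type and less RNA per cell cannot be told apart.

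Metallothioneins are small proteins, rich in cysteine, that bind zinc and copper in the cytoplasm. In brain, Mt1 and Mt2 are known chiefly from astrocytes and respond to metals, to glucocorticoid hormone and to inflammatory signals, while Mt3 is the form enriched in the central nervous system and is much less inducible. Mtf1 encodes the transcription factor that senses free zinc and binds metal response elements in the promoters of Mt1, Mt2 and Slc30a1. Transporters of the SLC30 family move zinc out of the cytoplasm, to the outside or into vesicles, and those of the SLC39 family move it in. Some members of both families carry manganese or iron instead, or as well.

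Depth was put at 17100000 to 21500000 fragments in a library, read from the smallest steps in the FPKM values and therefore uncertain. At that depth an estimated 2287 to 3013 fragments fell on Mt1 in fasted libraries and 1602 to 1994 in ad libitum libraries, whereas Slc30a10, the lowest member in fasted cortex, had an estimated 261 to 319 in fasted and 347 to 392 in ad libitum libraries. These counts carry counting error only and say nothing of the spread between libraries. The label of the tissue was checked against markers. Slc17a7 and Camk2a, which mark excitatory neurons of the cortex, averaged 406 and 671.5 FPKM in fasted libraries and 405.5 and 621 FPKM in ad libitum libraries. The 5 markers of choroid plexus and ependyma summed to 2.48 to 4.52 FPKM in fasted libraries and 1.83 to 2.83 FPKM in ad libitum libraries. Xist was at 62.9 to 77.5 FPKM in the libraries of even number, where the Y-linked gene Ddx3y was at most 0.0225 FPKM. In fasted replicates 1 and 3 and ad libitum replicate 1, Xist was at most 0.0495 FPKM and Ddx3y at 10.5 to 14.4 FPKM. Ad libitum replicate 3 had reads of Xist as well as of Y-linked genes, and counts and calls that change without it are given with the results.

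Mt1, Mt2 and Mt3 lie in a row on chromosome 8, all on the plus strand, together with Mt4, the metallothionein of stratified epithelia. In the GRCm38 assembly, the same as the mm10 build of the deposited table, Mt3 spans chr8:94152607-94154146, Mt2 chr8:94172664-94173568 and Mt1 chr8:94179082-94180327. The transcripts have 3 exons each and are short, 536, 511 and 549 bases. Only 5513 bases separate the end of Mt2 from the start of Mt1, and 18517 separate Mt3 from Mt2. Of the stretches of 50 bases in the Mt1 and Mt3 transcripts, 0 occur in a transcript of another gene in the GENCODE M21 annotation, and the 3 genes share none with each other. The Mt2 transcript shares 45.5% of its stretches with Gm45774, an antisense transcript across the locus (chr8:94170748-94173412, minus strand). Gm45774 is not among the gene symbols deposited, so that no values of it can be given. Whether the libraries keep strand is not given in the sources used here, so that reads of Mt2 and of this antisense gene cannot be told apart.

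The promoter windows of the metallothionein genes are shown because these carry the elements through which Mtf1 is known to act, and that of Slc30a10 because it holds several matches in a gene that was lower in fasted cortex. The windows are RefSeq's for GRCm38.p6, 250 bases before to 50 bases after the annotated start, and 8 of the 9 members, all but Slc39a14, matched one. Sequences run 5′ to 3′ on the strand of the gene, and capitals mark matches to the core of the metal response element, TGCACNC or TGCGCNC on either strand. The Mt1 window is chr8:94178839-94179138, the Mt2 window chr8:94172368-94172667, the Mt3 window chr8:94152357-94152656 and the Slc30a10 window chr1:185454598-185454897, all on the plus strand.
Mt1: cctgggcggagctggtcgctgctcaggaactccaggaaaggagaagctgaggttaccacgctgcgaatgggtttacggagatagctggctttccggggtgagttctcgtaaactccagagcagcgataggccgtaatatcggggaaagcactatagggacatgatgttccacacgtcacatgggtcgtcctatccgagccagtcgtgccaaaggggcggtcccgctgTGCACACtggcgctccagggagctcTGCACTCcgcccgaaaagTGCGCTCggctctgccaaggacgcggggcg
Mt2: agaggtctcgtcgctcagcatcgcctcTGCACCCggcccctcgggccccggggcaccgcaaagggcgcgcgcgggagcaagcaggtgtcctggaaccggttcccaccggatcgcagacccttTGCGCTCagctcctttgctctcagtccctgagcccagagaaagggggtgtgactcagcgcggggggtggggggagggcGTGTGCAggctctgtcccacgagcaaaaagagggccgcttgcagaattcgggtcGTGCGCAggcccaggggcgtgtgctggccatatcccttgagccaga
Mt3: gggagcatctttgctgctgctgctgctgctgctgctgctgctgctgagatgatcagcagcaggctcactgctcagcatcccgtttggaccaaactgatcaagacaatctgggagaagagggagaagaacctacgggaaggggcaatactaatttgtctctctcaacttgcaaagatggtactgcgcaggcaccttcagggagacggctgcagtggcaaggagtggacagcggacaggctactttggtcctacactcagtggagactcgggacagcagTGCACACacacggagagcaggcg
Slc30a10: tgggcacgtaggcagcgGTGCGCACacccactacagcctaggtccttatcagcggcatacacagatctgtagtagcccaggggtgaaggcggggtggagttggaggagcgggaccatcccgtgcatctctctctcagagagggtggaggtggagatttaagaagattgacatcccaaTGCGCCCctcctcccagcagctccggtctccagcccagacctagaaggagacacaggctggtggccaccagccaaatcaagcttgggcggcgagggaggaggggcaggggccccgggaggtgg

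The Mt1 window held 3 matches, beginning at -23, 3 and 21, where -1 is the last base before the annotated start and 1 the first base of the transcript. The Mt2 window held 4, beginning at -223, -128, -50 and 5. The Mt3 window held 1, beginning at 28. Of all 32851 promoter windows of this length, 25.7% held at least 1 match, 7.11% at least 2, 1.97% at least 3 and 0.517% at least 4. The windows of Slc30a1 and Slc30a10 held 2 and 3 matches, and in Slc30a10 those beginning at -233 and -232 overlap and are read from opposite strands. One of the 2 windows of Slc30a3 held 1 match, and 0 were found in the window of Mtf1 and in both windows of Slc39a10. The main transcript of Slc39a10 starts outside both windows. The Mt1 window was also the only member window with a match to the glucocorticoid element (GNACA and TGTNC with 3 bases between, either strand), the run GGACATGATGTTC beginning at -94, a pattern found in 0.475% of windows. The glucocorticoid element was searched for only in these windows, so that elements further from the start would not be seen. These are matches of letters and not measured binding sites. The start of the metallothionein genes is annotated at several positions. Extending the search for the metal response element to the last annotated start gave 5 matches for Mt1, 7 for Mt2 and 3 for Mt3, in 402, 492 and 389 bases.

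**Figure D1:**
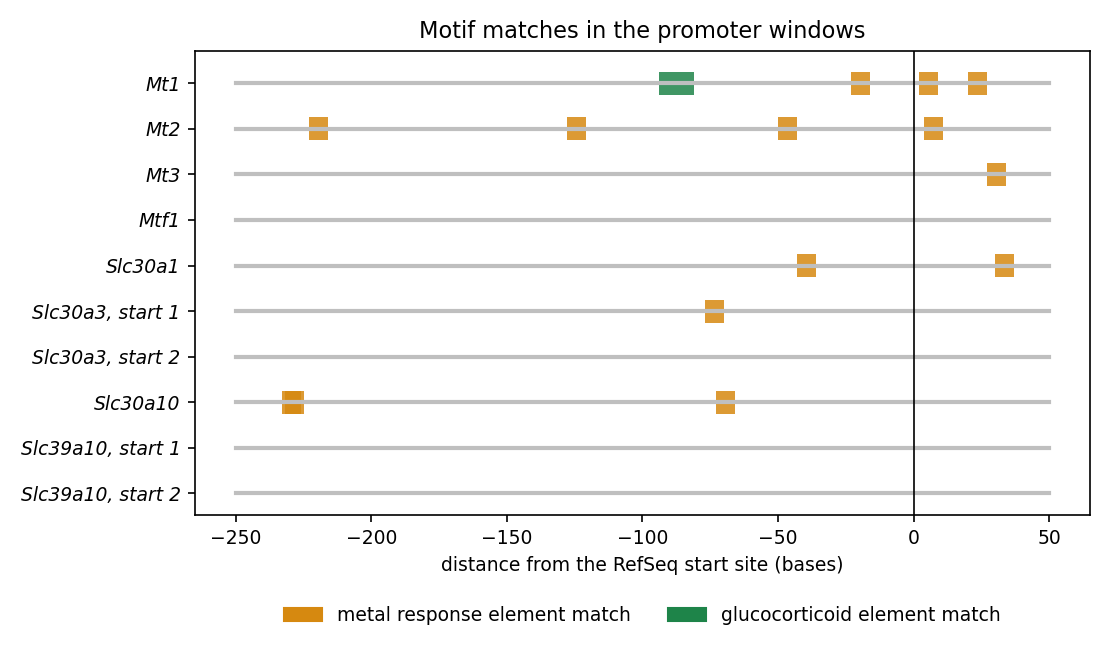
Matches to the core of the metal response element (orange) and to the glucocorticoid element (green) in the RefSeq promoter windows of the members, by distance from the annotated start in bases. Mt2 has 4 and Mt1 has 3 metal response element matches, Mt3 has 1, and the only glucocorticoid element match lies in the Mt1 window.

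The comparison of fasted with ad libitum cortex asks how these genes differ after 48 h without food. Mt1 rose, and the transporter genes Slc39a10 and Slc30a10 fell. The other 6 members did not pass the test, among them Mt2 and Mtf1, which were higher within each of the 4 replicate numbers. No label pairs libraries by replicate number, and over autosomal coding genes the pairing read from the data did not hold for number 3. This limits the results within replicate numbers and with the block. Of the 9 members, 1 was higher and 2 were lower (limma on log2(FPKM + 1), Benjamini-Hochberg adjusted p under 0.05 over all tested genes), against 9.56% of all tested genes called higher, 16.3% called lower and 25.8% called in either direction. The same 3 members had no overlap between groups, against 27.6% of all tested genes. The members called, 3 of 9, are thus near the share of the table as a whole. The median log2 change of the members was 0.08 and that of all tested genes -0.02. With the replicate number as a block, 3 members were higher and 2 lower, against 14.3% and 22.1% of all tested genes and 36.4% in either direction.

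**Figure D2:**
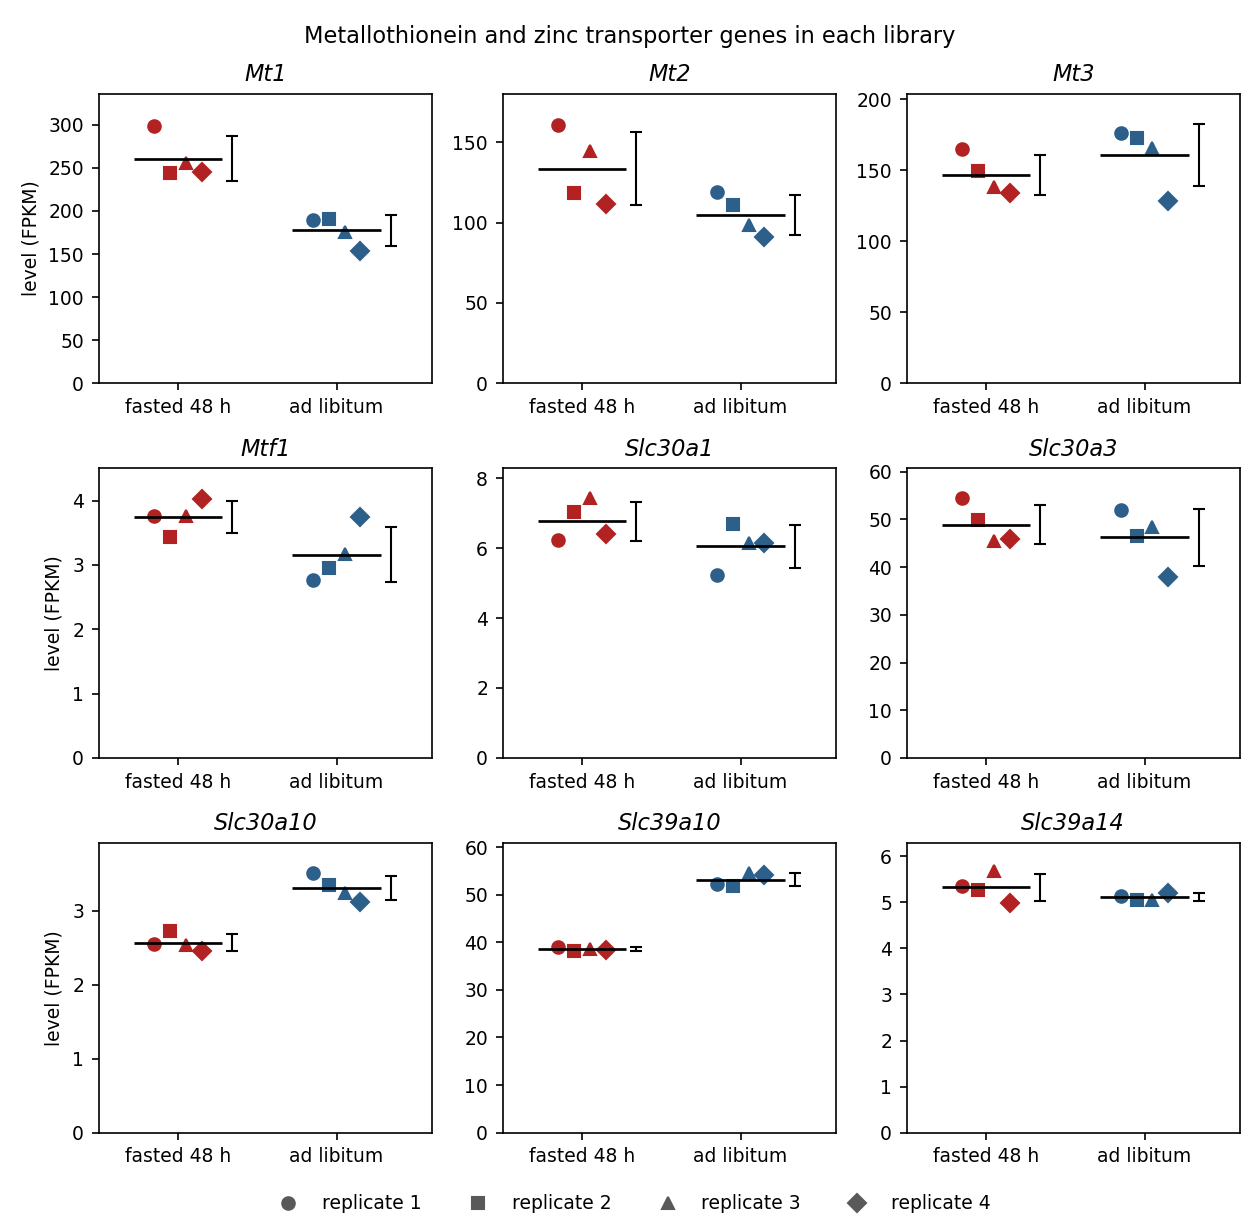
Level in FPKM of each member in each library, fasted libraries (red) left of ad libitum libraries (blue), with symbols for the replicate numbers. Horizontal lines are group means and vertical bars 1 SD either side (n = 4 each). The groups do not overlap for Mt1, Slc30a10 and Slc39a10.

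Mt1 was at 298.5, 244.1, 255.5 and 245.1 FPKM in fasted replicates 1 to 4, against 189.8, 191.2, 175.6 and 153.1 FPKM in ad libitum replicates 1 to 4. The lowest fasted library lay above the highest ad libitum library. The mean was 260.8 ± 25.7 FPKM in fasted cortex and 177.4 ± 17.7 FPKM in ad libitum cortex (SD, n = 4 each), a ratio of 1.47. The log2 change was 0.55 (SE 0.088, 95% interval 0.36 to 0.75, limma adjusted p = 0.00136), and it was higher in fasted cortex in 4 of 4 replicate numbers. It passed under all 20 alternative settings, at 0.49 to 0.60.

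Mt2, the neighbour of Mt1 and like it an inducible form, was at 160.4, 118.2, 144.3 and 111.5 FPKM in fasted replicates 1 to 4, against 118.9, 110.8, 98.5 and 91.0 FPKM in ad libitum replicates 1 to 4. Fasted replicates 2 and 4 lay within the range of the ad libitum libraries, while fasted replicates 1 and 3 lay above it. On the log2 scale the change was 0.34 (SE 0.118, 95% interval 0.08 to 0.60, limma adjusted p = 0.0539), so that Mt2 did not pass. With the replicate number as a block the adjusted p from limma was 0.00482. Over the 20 alternatives it ran between 0.000799 and 0.14, and 10 of them passed, among them those without fasted replicate 4 or without ad libitum replicate 1 (limma adjusted p = 0.0251 to 0.0384).

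Mt3, the neural form, was at 165.3, 149.5, 138.6 and 133.9 FPKM in fasted replicates 1 to 4, against 176.1, 173.1, 165.9 and 128.6 FPKM in ad libitum replicates 1 to 4. The groups overlap, and ad libitum replicate 4 was the lowest of all 8 libraries. The log2 change was -0.13 (SE 0.102, 95% interval -0.35 to 0.10, limma adjusted p = 0.393). Without ad libitum replicate 4 it was -0.23 (limma adjusted p = 0.0277). Mt4 was listed at 0 in all 8 libraries.

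Ratios within a library do not depend on how libraries are scaled against each other, and they ask whether the metallothionein genes changed unequally. The ratio of Mt1 to Mt3 was 1.81, 1.63, 1.84 and 1.83 in fasted replicates 1 to 4, against 1.08, 1.105, 1.06 and 1.19 in ad libitum replicates 1 to 4. The groups were wide apart relative to their spread, with means of 1.78 ± 0.098 in fasted and 1.11 ± 0.058 in ad libitum cortex (SD, n = 4 each). The log2 ratio differed by 0.68 (exact two-sided permutation test over 70 assignments, p = 0.0286, the smallest the design allows, and 0.0429 adjusted over 3 ratios). The ratio of Mt2 to Mt3 was 0.909 ± 0.117 in fasted and 0.654 ± 0.049 in ad libitum cortex, with no overlap, a log2 difference of 0.46 (the same exact test, p = 0.0286, adjusted 0.0429). The ratio of Mt2 to Mt1 was 0.51 ± 0.050 in fasted and 0.59 ± 0.028 in ad libitum cortex, a log2 difference of -0.21 that did not pass (exact test, p = 0.0571, adjusted 0.0571). With only 4 pairs, a test within replicate numbers cannot go below 0.125, the value it gave for both ratios to Mt3.

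**Figure D3:**
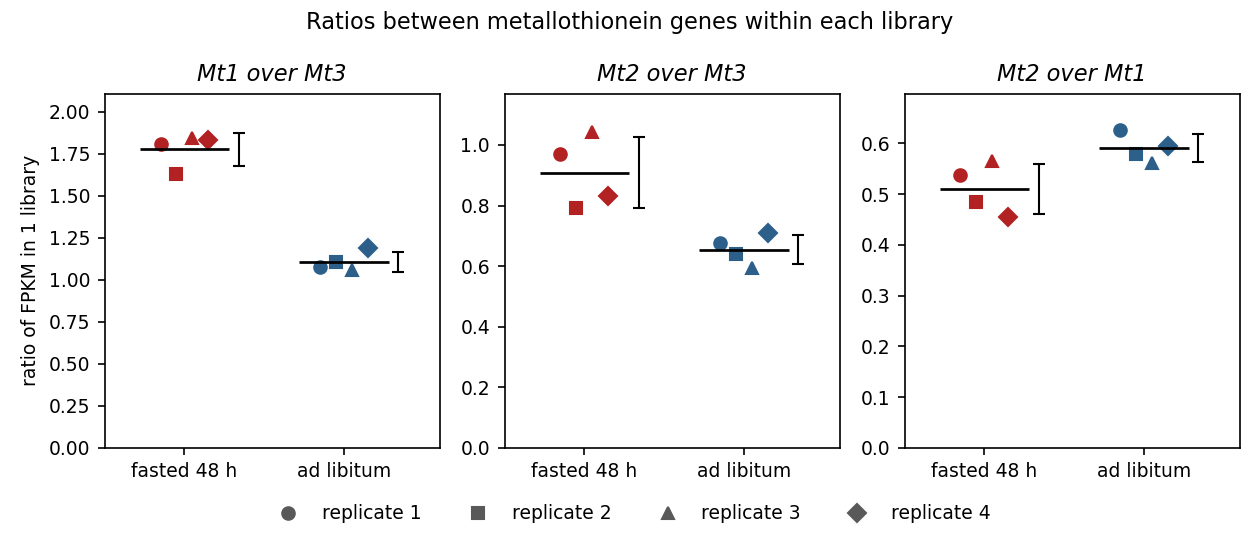
Ratio of FPKM between metallothionein genes within each library, fasted (red) left of ad libitum (blue), with the group mean as a line and 1 SD either side as a bar (n = 4 each). The ratios of Mt1 to Mt3 and of Mt2 to Mt3 are higher in all 4 fasted libraries than in any ad libitum library, and the ratios of Mt2 to Mt1 overlap.

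Of the summed FPKM of Mt1, Mt2 and Mt3, Mt1 made up 47.45% to 49.97% in fasted libraries and 39.2% to 41.1% in ad libitum libraries. Mt3 made up 25.7% to 29.2% in fasted libraries and 34.5% to 37.7% in ad libitum libraries. The share of Mt2 overlapped between the groups, at 22.7% to 26.8% in fasted and 22.4% to 24.5% in ad libitum libraries. The sum itself was 490.5 to 624.2 FPKM in fasted libraries and 372.8 to 484.7 FPKM in ad libitum libraries, also without overlap.

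The genes around the metallothionein row on chromosome 8 were read for comparison. Nup93, a nuclear pore gene, lies 34237 bases away on one side and Bbs2, a gene of the ciliary BBSome, 38269 bases away on the other. Neither passed the test, with log2 changes of 0.15 and 0.08 (limma adjusted p = 0.115 and 0.384). Of 7 neighbours tested, 1 was higher and 1 lower (2 and 1 with the replicate block, 0 and 0 without ad libitum replicate 3). Herpud1, which acts in the degradation of proteins of the endoplasmic reticulum, was higher by 0.30 on the log2 scale (limma adjusted p = 0.0151, and 0.0512 without ad libitum replicate 3). Gnao1, a G protein subunit of neurons, was lower, at -0.16 (limma adjusted p = 0.0449), and leaving out any of 6 libraries, which were fasted replicates 2, 3 and 4 and ad libitum replicates 1, 2 and 3, took it to 0.0664 to 0.119.

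Mtf1, the zinc-sensing factor itself (chr4:124802104-124849800, plus strand), was at 3.76, 3.43, 3.76 and 4.03 FPKM in fasted replicates 1 to 4, against 2.77, 2.95, 3.18 and 3.75 FPKM in ad libitum replicates 1 to 4. Ad libitum replicate 4 reached into the range of the fasted libraries, and the other ad libitum libraries lay below it. Its log2 change was 0.19 (SE 0.079, 95% interval 0.02 to 0.37, limma adjusted p = 0.0929). It passed with the replicate number as a block (limma adjusted p = 0.0410) and without ad libitum replicate 4 (0.26, limma adjusted p = 0.0167). The Mtf1 transcript shares 8.86% of its stretches of 50 bases with 1110065P20Rik, an overlapping gene on the other strand, at 13.8 ± 1.76 FPKM in fasted and 12.5 ± 2.10 FPKM in ad libitum cortex (SD, n = 4 each). Of 3 tested genes that are known to respond to this factor and are not members, 1 was higher and 0 lower. Gclc, the catalytic subunit for glutathione synthesis, was at 16.5 to 18.1 FPKM in fasted and 13.5 to 14.7 FPKM in ad libitum libraries, a log2 change of 0.27 (limma adjusted p = 0.0034). Ndrg1 and Csrp1 had log2 changes of -0.06 and 0.01 and did not pass.

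Among the zinc exporters, Slc30a10 fell. Its product sits in the plasma membrane and is known in human disease as an exporter of manganese. Slc30a10 (chr1:185454848-185468762, plus strand) was at 2.55, 2.73, 2.54 and 2.45 FPKM in fasted replicates 1 to 4, against 3.51, 3.345, 3.24 and 3.12 FPKM in ad libitum replicates 1 to 4. Every fasted library lay below every ad libitum library. The log2 change was -0.27 (SE 0.059, 95% interval -0.40 to -0.14, limma adjusted p = 0.00755), and it passed under all 20 alternatives. The transcript shares 8.36% of its stretches of 50 bases with the noncoding gene Gm2061 on the other strand, at 0.962 ± 0.065 FPKM in fasted and 0.935 ± 0.119 FPKM in ad libitum cortex (SD, n = 4 each).

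Slc30a1 encodes the zinc exporter of the plasma membrane and is a known target of Mtf1. It was at 6.22, 7.02, 7.42 and 6.41 FPKM in fasted replicates 1 to 4, against 5.22, 6.69, 6.15 and 6.13 FPKM in ad libitum replicates 1 to 4. The groups overlap, although the fasted library was the higher within each replicate number. This gave a log2 change of 0.14 (SE 0.076, 95% interval -0.03 to 0.31, limma adjusted p = 0.192), and it passed in 1 of 20 alternatives, the replicate block with length and GC offsets (limma adjusted p = 0.0312). Its transcript shares 8.08% of its stretches of 50 bases with the antisense gene 1700034H15Rik, at 0.64 ± 0.117 FPKM in fasted and 0.662 ± 0.088 FPKM in ad libitum cortex (SD, n = 4 each). Slc30a3 encodes the transporter that loads zinc into the synaptic vesicles of glutamatergic neurons. It was at 54.4, 49.8, 45.5 and 45.9 FPKM in fasted replicates 1 to 4, against 51.9, 46.6, 48.45 and 37.9 FPKM in ad libitum replicates 1 to 4. The groups overlap almost wholly, and the log2 change of 0.08 (SE 0.092, 95% interval -0.12 to 0.29, limma adjusted p = 0.53) was -0.0051 without ad libitum replicate 4.

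Over the SLC30 family, 9 of 10 genes were tested, 0 were higher and 3 lower, with a median log2 change of 0.03. With length and GC offsets 2 were higher (Slc30a4 and Slc30a7) and 2 lower (Slc30a2 and Slc30a10). With the replicate block added to these offsets, the 2 higher were Slc30a1 and Slc30a4, and the same 2 were lower. Of the 3 lower without offsets or block, those beside Slc30a10 were Slc30a2, a vesicular exporter, and Slc30a6, of the Golgi. Slc30a2 was at 1.29 to 1.63 FPKM in fasted and 1.87 to 2.22 FPKM in ad libitum libraries (log2 change -0.28, limma adjusted p = 0.0189), and lost the call without fasted replicate 3 or ad libitum replicate 1 (limma adjusted p = 0.0526 to 0.0568). Slc30a6 was at 2.36 to 2.795 FPKM in fasted and 2.83 to 3.90 FPKM in ad libitum libraries (-0.26, limma adjusted p = 0.0329). It passed in 11 of 20 alternatives and lost the call when any of 6 libraries was left out, which were replicates 1, 2 and 3 of either group (limma adjusted p = 0.0558 to 0.0897). Slc30a4 and Slc30a7, also of intracellular compartments, had no overlap between groups in the other direction but did not pass, with log2 changes of 0.10 and 0.15 (limma adjusted p = 0.128 and 0.0939). Slc30a5 and Slc30a9 were at 0.03 and -0.00054. Slc30a8, the transporter of insulin granules, was listed at 0 in 7 of 8 libraries and was not tested.

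Among the zinc importers, Slc39a10 fell, with the smallest adjusted p of the 9 members. It encodes a plasma membrane importer that Mtf1 is known to repress. Slc39a10 (chr1:46807544-46892852, minus strand) was at 39.0, 38.1, 38.6 and 38.5 FPKM in fasted replicates 1 to 4, against 52.2, 51.8, 54.6 and 54.2 FPKM in ad libitum replicates 1 to 4. The libraries within a group lay close together, and the groups were far apart. The mean was 38.55 ± 0.393 FPKM in fasted and 53.2 ± 1.39 FPKM in ad libitum cortex (SD, n = 4 each), a ratio of 0.725. The log2 change was -0.45 (SE 0.045, 95% interval -0.55 to -0.36, limma adjusted p = 0.000112), and it passed under all 20 alternatives at -0.47 to -0.41.

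Slc39a14 carries manganese and iron as well as zinc into cells and is known for its induction by IL-6 in mouse liver. It was at 5.36, 5.27, 5.69 and 4.98 FPKM in fasted replicates 1 to 4, against 5.15, 5.05, 5.04 and 5.21 FPKM in ad libitum replicates 1 to 4. Fasted replicate 4 was the lowest of all 8 libraries and fasted replicate 3 the highest. On the log2 scale the difference was 0.05 (SE 0.055, 95% interval -0.07 to 0.17, limma adjusted p = 0.55).

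Over the SLC39 family, 10 of 14 genes were tested, 0 were higher and 1 lower, and 2 were lower with the replicate block. The median log2 change was -0.06. Median-ratio and equal-sum scaling gave 2 lower, and length and GC offsets 3, with and without the block. The additional gene with the block was Slc39a3, an importer of the plasma membrane, at 9.04 to 11.5 FPKM in fasted and 10.7 to 13.8 FPKM in ad libitum libraries. Its log2 change was -0.25 (limma adjusted p = 0.0671, with the block 0.00267, and without ad libitum replicate 4 0.0122). Slc39a13 and Slc39a12, the second of which is abundant in brain, had log2 changes of -0.15 and -0.10 (limma adjusted p = 0.163 and 0.268). Slc39a1, Slc39a6, Slc39a7, Slc39a9 and Slc39a11 lay between -0.06 and 0.05, and Slc39a2, Slc39a4, Slc39a5 and Slc39a8 did not reach 1 FPKM in 4 libraries.

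**Figure D4:**
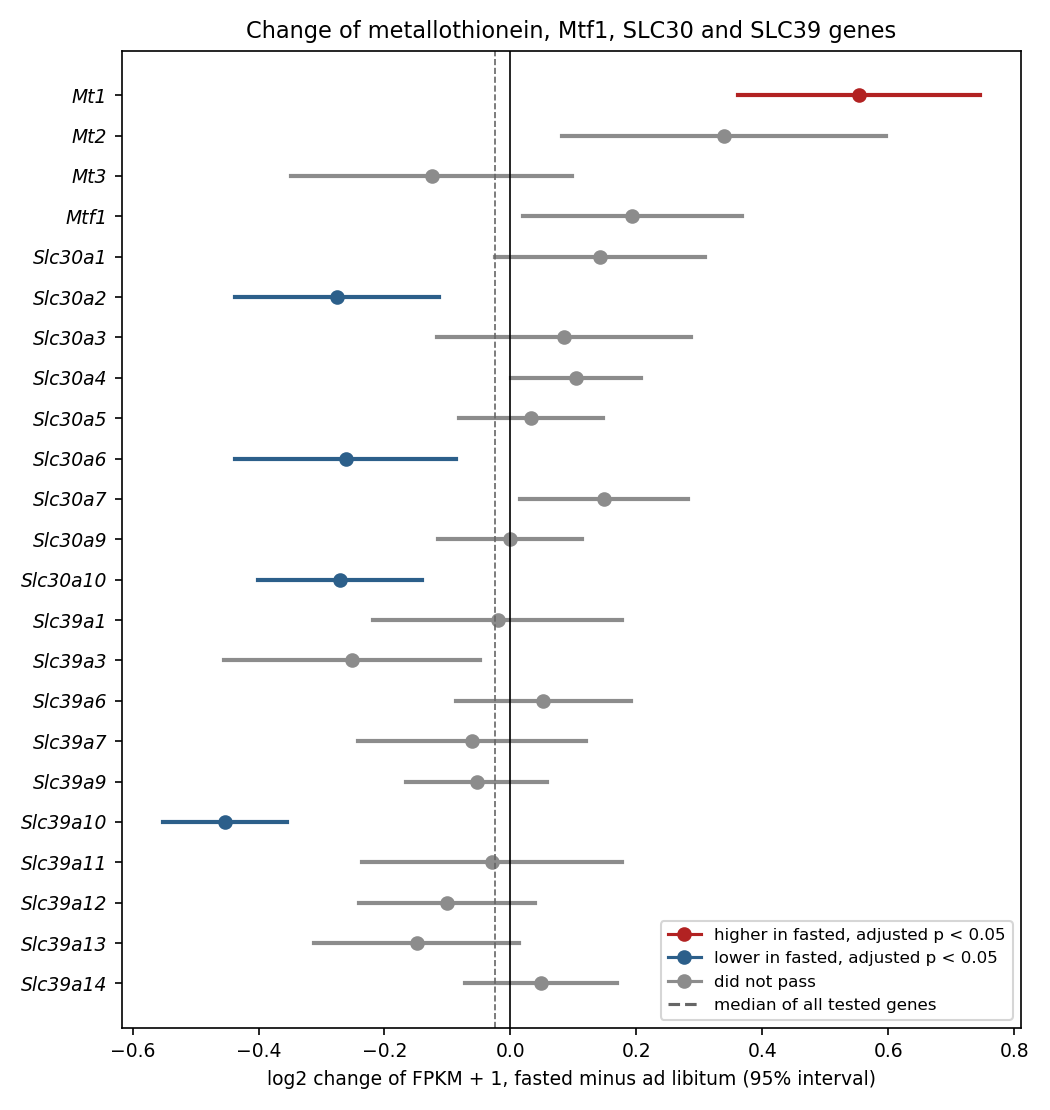
Log2 change of FPKM + 1, fasted minus ad libitum, with its 95% interval from limma, for the tested metallothionein, Mtf1, SLC30 and SLC39 genes. Red marks genes higher and blue genes lower in fasted cortex at an adjusted p under 0.05, grey those that did not pass, and the dashed line the median of all tested genes at -0.02. Mt1 is the only gene in red, and Slc30a2, Slc30a6, Slc30a10 and Slc39a10 are in blue.

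Since FPKM are set per length, levels can be ranked between genes. In fasted cortex the order by mean was Mt1, Mt3, Mt2, Slc30a3, Slc39a10, Slc30a1, Slc39a14, Mtf1 and Slc30a10, and only the ranges of the neighbours Mt3 and Mt2 overlapped. In ad libitum cortex it was Mt1, Mt3, Mt2, Slc39a10, Slc30a3, Slc30a1, Slc39a14, Slc30a10 and Mtf1. There the ranges of Mt1 and Mt3, of Slc39a10 and Slc30a3 and of Slc30a10 and Mtf1 overlapped. In fasted cortex the highest Slc39a10 library lay thus below the lowest Slc30a3 library, and in ad libitum cortex Slc39a10 at 53.2 ± 1.39 FPKM and Slc30a3 at 46.2 ± 5.95 FPKM overlapped (SD, n = 4 each).

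The differences within replicate numbers show how even each change was. For Mt1 they were 0.65, 0.35, 0.54 and 0.67 on the log2 scale in replicates 1 to 4, and for Mt2 0.43, 0.09, 0.55 and 0.29. Both genes differed least in replicate 2. For Slc39a10 the differences ran from -0.49 to -0.41 and for Slc30a10 from -0.35 to -0.22, while Slc30a3, Mt3 and Slc39a14 had both signs.

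**Figure D5:**
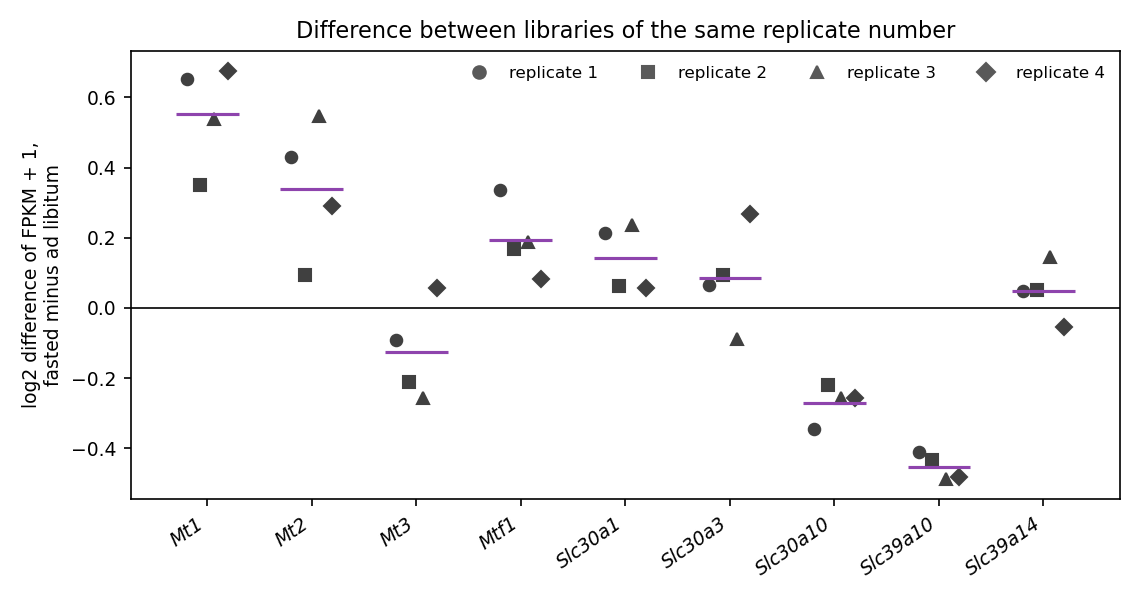
Difference of log2(FPKM + 1) between the fasted and the ad libitum library of the same replicate number, for each member, with symbols for the number and a line at the mean of the 4. Mt1, Mt2, Mtf1 and Slc30a1 lie above 0 and Slc30a10 and Slc39a10 below 0 in all 4 numbers.

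Genes that handle other metals were read beside the members. Of 12 tested genes of iron and manganese handling, 2 were higher and 2 lower (3 and 2 with the replicate block). The higher count depended on scaling, with 4 after median-ratio scaling, 5 with length and GC offsets and 6 with offsets and block, against 2 lower in each. Tfrc, the transferrin receptor, was higher, at 27.8 to 30.9 FPKM in fasted and 22.3 to 23.55 FPKM in ad libitum libraries (log2 change 0.34, limma adjusted p = 0.000914). Heph, a ferroxidase for iron export, was also higher (0.43, limma adjusted p = 0.00348). Slc40a1, the iron exporter ferroportin, was lower (-0.34, limma adjusted p = 0.0084), as was Atp2c1, the Golgi pump for calcium and manganese (-0.38, limma adjusted p = 0.000748). The iron exporter and its ferroxidase thus moved in opposite directions. Of 12 tested genes of copper handling, 1 was higher and 0 lower (1 and 2 with the block, 2 and 0 with length and GC offsets). The higher one was Cp, the copper-carrying ferroxidase ceruloplasmin, at 2.99 to 3.50 FPKM in fasted and 1.90 to 2.80 FPKM in ad libitum libraries (0.33, limma adjusted p = 0.0155). Of the 7 genes of the AP-3 adaptor, which sorts Slc30a3 to synaptic vesicles, 0 were higher and 1 lower (0 and 2 with the block, 0 and 0 after median-ratio or equal-sum scaling). This was Ap3s1, at -0.18 (limma adjusted p = 0.0230), which lost the call without fasted replicate 1, fasted replicate 2 or ad libitum replicate 2 (limma adjusted p = 0.0503 to 0.0634).

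Genes of other signals known to act on metallothionein genes were counted too. All 12 tested genes of a list known to respond to glucocorticoid hormone were higher, with a median log2 change of 0.73, and this list was drawn up with the earlier results of these data known. Its smallest p-values were those of Sult1a1, a sulfotransferase (log2 change 1.59, limma adjusted p = 9.6e-07), Hif3a, a hypoxia-inducible factor (1.27, limma adjusted p = 1.48e-05), Fkbp5, a chaperone of the receptor (1.63, limma adjusted p = 1.48e-05), and Sgk1, a kinase (1.16, limma adjusted p = 1.85e-05). Hif3a passed the filter on low values only through the fasted group, at 2.855 to 3.765 FPKM against 0.641 to 0.910 FPKM in ad libitum libraries. Of 5 tested genes of the IL-6 and STAT3 acute phase, 2 were higher and 0 lower (2 and 1 with the block). Without the filter on low values 5 were higher, since Lcn2, Il6ra and Osmr, at means of 0.358, 1.26 and 1.14 FPKM in fasted and 0.119, 0.807 and 0.699 FPKM in ad libitum cortex, then passed. The 2 above the filter were Serpina3n, a protease inhibitor of reactive astrocytes (0.60, limma adjusted p = 0.000696), and the transcription factor Cebpd (0.71, limma adjusted p = 0.00383). Cebpd passed the filter only through the fasted group, at 1.33 to 2.02 FPKM against 0.340 to 0.982 FPKM in ad libitum libraries, which limits its call. Of 10 tested genes of the NRF2 response to oxidants, 0 were higher and 1 lower (0 and 2 with the block, 2 and 1 with length and GC offsets), and the lower one was Slc7a11, the cystine importer (-0.70, limma adjusted p = 0.000235). Gclc, the gene of glutathione synthesis given above as higher, was counted with the genes that respond to Mtf1 and not in this list. Which of these signals bears on Mt1 was not tested.

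Of 12 astrocyte markers, the cell type from which Mt1 and Mt2 are chiefly known, 1 was higher and 3 lower (3 and 3 with the block), and none was at 0. Their summed level was 1420 to 1621 FPKM in fasted libraries and 1391 to 1558 FPKM in ad libitum libraries, which overlap. Aqp4, the water channel of astrocyte endfeet, was lower at -0.79 (limma adjusted p = 2.05e-05), Gja1, a gap junction gene, at -0.21 (limma adjusted p = 0.0127) and Gfap at -0.28 (limma adjusted p = 0.0273, and 0.0523 to 0.0861 without ad libitum replicate 2 or 3), while Fgfr3 was higher at 0.38 (limma adjusted p = 0.00302). The astrocyte markers called thus lay in both directions, beside 25.8% of all tested genes called in either direction. Of 10 excitatory neuron markers, 0 were higher and 5 lower (2 lower without ad libitum replicate 3), their sum at 1740 to 2011 FPKM in fasted and 1705 to 2132 FPKM in ad libitum libraries. Of 8 oligodendrocyte markers, 2 were higher and 0 lower (3 and 1 with the block), Mobp at 0.43 (limma adjusted p = 0.00558) and Mal at 0.27 (limma adjusted p = 0.0414), with overlapping sums of 1730 to 2066 FPKM in fasted and 1589 to 1980 FPKM in ad libitum libraries. Mal lost its call when any of 5 libraries was left out, which were fasted replicates 1 and 3 and ad libitum replicates 1, 2 and 4 (limma adjusted p = 0.0625 to 0.12). Of 10 microglial markers, 0 were higher and 5 lower (0 and 7 with the block, 4 lower without ad libitum replicate 3 and 9 lower without ad libitum replicate 4). The microglial sums were 116.5 to 134.5 FPKM in fasted and 130.7 to 183.0 FPKM in ad libitum libraries. Of 6 markers of oligodendrocyte precursors 0 were higher and 3 lower (1 and 3 with the block, 2 lower without ad libitum replicate 3). Their sums were 50.9 to 57.4 FPKM in fasted and 61.6 to 67.7 FPKM in ad libitum libraries. Of 5 tested mural cell markers 2 were lower, with sums of 33.3 to 38.0 FPKM in fasted and 44.8 to 54.1 FPKM in ad libitum libraries. Of 8 endothelial markers 0 were higher and 2 lower (0 and 3 with the block), with sums of 49.5 to 60.5 FPKM in fasted and 57.4 to 69.3 FPKM in ad libitum libraries. The remaining lists, of inhibitory neurons, choroid plexus, meninges, blood, hippocampus and thalamus, held at most 1 called marker each. The part of these shifts in the levels of Mt1, Slc39a10 and Slc30a10 was not tested.

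By Pearson correlation of log2(FPKM + 1) over the 8 libraries, the genes most like Mt1 were Emc8 (r = 0.997), Tma16 (0.994), Wnt4 (0.991), Cyp2d22 (0.99) and Icosl (0.988), given as a description, since groups and replicate numbers shape every such value. Emc8 was at 9.47 to 10.8 FPKM in fasted and 6.83 to 7.83 FPKM in ad libitum libraries. Mt2 stood at rank 645 of the tested genes with r = 0.883, and Mt3 at -0.0093. Taken as deviations from the group means, which leave out the difference between the groups, the correlation with Mt1 was 0.902 for Mt3 and 0.875 for Mt2. By this measure the other members ran from -0.61 for Mtf1 to 0.833 for Slc30a3. The 5 genes above were at 0.935 to 0.99, but their choice by likeness to Mt1 over the same libraries makes high values certain in advance. How common such values are among all tested genes was not examined. Those of Mt2 and Mt3 can therefore not be called particular to them.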

How the data were processed

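RNA-seq of occipital cortex was compared between 4 fasted and 4 ad libitum libraries. The groups come from the treatment labels and the replicate numbers from the titles. TopHat and build mm10 are named, per the submitters' processing notes. The quantifier, annotation, strandedness and TopHat version are not given in the sources used. The authors deposited FPKM per gene and library in 1 table of 24883 rows, with no scaling between libraries stated. For the 282 symbols on several rows the row with the highest mean was used.

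Members and lists were chosen with earlier results of these data known. Genes with at least 1 FPKM in at least 4 libraries were tested on log2(FPKM + 1) with limma 3.58.1 in R 4.3.3 (empirical Bayes with trend and robust estimation, group as the only term), after a test on simulated data. Genes with a Benjamini-Hochberg adjusted p under 0.05 over the 12377 tested were called. The log2 scale with a pseudocount understates changes of low genes, and ratios of means are of FPKM. Ratios within libraries were tested by exact permutation. All 9 members were named, with the measured SLC30 and SLC39 genes. From other lists up to 4 called genes with the smallest p were named, and beside the 5 genes most like Mt1, Ndrg1, Csrp1, Nup93, Bbs2, Lcn2, Il6ra, Osmr, Slc17a7 and Camk2a were chosen after their values were seen. Positions come from GENCODE M21, which matched 23284 symbols, and promoter windows from RefSeq. Python 3.11.15, pandas 2.3.3 and matplotlib 3.10.9 were used.

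Depth was estimated from FPKM times length at the density of low values. The 20 alternatives changed the pseudocount, filter, scaling, length and GC correction, block, odd and even numbers, empirical Bayes options or repeated symbols, or left out 1 library. Equal-sum scaling without the 10 most abundant genes was added after seeing the data.

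Libraries with the same number were taken as pairs from the data, not from a label. Across the 12377 genes, which are not independent of each other, their deviations from the group means had correlations of 0.574, 0.496, 0.382 and 0.523 for numbers 1 to 4. Across 11156 autosomal genes that code for protein these were 0.335, 0.193, 0.0758 and 0.371. Over these genes both libraries of number 3 correlated best with number 4 of the other group, and ad libitum replicate 2 with fasted replicate 1. The pairing thus did not hold for number 3 and held in 1 direction only for number 2, which limits results with the block or within replicate numbers.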

Additional observations from a re-analysis of the deposited data

How the results depend on the processing

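Mt1, Slc30a10 and Slc39a10 kept their direction and their call under all 20 alternatives. Of all tested genes 1183 were higher and 2015 lower, against 1762 and 1935 after median-ratio scaling, 1792 and 1909 after quantile scaling, 2029 and 2054 with length and GC offsets, and 841 to 1196 and 1406 to 2572 when 1 library was left out. These scalings moved the median of all genes to within 0.01 of 0. Members called higher numbered 1, and 2 (with Mt2) under median-ratio, equal-sum, equal-sum without the 10 most abundant genes and quantile scaling, with length and GC offsets and with odd against even numbers as a term, and 1 to 2 when 1 library was left out. Odd and even numbers also differ in Xist and Ddx3y, as given above. Members called lower numbered 2 to 3. Slc30a3 changed sign without ad libitum replicate 4, to -0.0051, and ran up to 0.14 with another library left out. The difference of the log2 ratio of Mt2 to Mt1 was -0.21 and passed with length and GC offsets (exact permutation test, adjusted p = 0.0286). With 1 library left out the exact test cannot go below 0.0571, so no ratio could pass, and the differences were 0.66 to 0.72 for Mt1 to Mt3, 0.40 to 0.53 for Mt2 to Mt3 and -0.26 to -0.16 for Mt2 to Mt1. The cause of these shifts was not tested.

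With the replicate number as a block, 1773 genes were higher and 2733 lower, and with length and GC offsets as well 2543 and 2498. Members called higher numbered 3 with the block and 4 with both. Under the block the log2 ratios to Mt3 differed by 0.68 for Mt1 and 0.46 for Mt2 (exact sign-flip test, p = 0.125, adjusted 0.1875), which no set of 4 pairs can improve on. Beside Mt2 and Mtf1 the block changed the call of no member.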
